A study of Mus musculus with 15 samples.

Results

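The genes described here are 44 that dividing cells use to copy their DNA and to separate their chromosomes, chosen by name for these roles, out of 55401 genes in the tables. They fall into 11 genes of S phase, the stretch of the cell cycle in which DNA is copied, and 33 genes of mitosis, in which the copies are pulled apart and the cell divides. RNA came from hearts of 12-week-old male C57BL6 mice that received a daily subcutaneous dose of isoproterenol, an agonist of β-adrenergic receptors, of 50 mg/kg/day for 4, 8 or 11 days, or saline for a similar period. The libraries were made from total RNA of 15 hearts, 4 in the saline group, 4 in the 4-day group, 3 in the 8-day group and 4 in the 11-day group, and each heart is named by its group and replicate letter. The study left out 1 further heart of the 8-day group, and which cells of the heart carried the RNA was not measured. All 44 members passed the filter of at least 10 counts over all libraries and were tested.

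Most cells of the adult heart do not divide, and heart muscle cells in particular leave the cell cycle soon after birth. Cells that do enter the cycle first raise the genes of DNA copying, which factors of the E2F family control, and later those of mitosis, which a complex called DREAM and the factors B-MYB and FOXM1 control through a promoter element named CHR (cell cycle genes homology region). Products of the mitosis genes are mostly removed at the end of each division, whereas several S phase proteins also serve DNA repair and nucleotide supply in cells at rest.

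Promoters are shown here because the 2 classes are known for different control elements. RefSeq windows of 300 bases on GRCm38.p6, from 250 bases before to 50 bases after the annotated start, were found for 37 of the 44 members. The motifs searched, on both strands, were the CHR, spelled TTTGAA, the CCAAT box, and the E2F site. An E2F site was any of the spellings TTCCCGC (the first form), TTGGCGC (the next), TTCGCGC (the third) and TTGCCGC (the last), which may overlap each other. The CHR was in 20 of 27 windows of mitosis members (74.1%), in 2 of 10 windows of S phase members (20%) and in 18.1% of all 27025 windows. E2F sites showed the other order, with 6 of 10 S phase windows (60.0%), 5 of 27 mitosis windows (18.5%) and 9.7% of all windows. CCAAT boxes were in 90% of the S phase windows, in 77.8% of the mitosis windows and in 37.9% of all windows. A CHR and a CCAAT box together were in 66.7% of the mitosis windows and 7.1% of all windows. These are matches of letters and not measured binding.

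**Figure D1:**
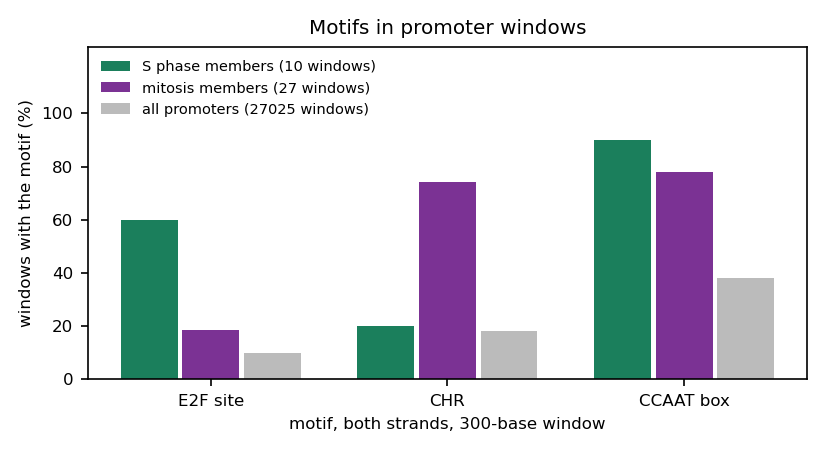
Share of RefSeq promoter windows of 300 bases that held an E2F site, a CHR or a CCAAT box on either strand (y axis, percent), for S phase members, mitosis members and all windows. The CHR bar is tallest for mitosis members (74.1%), and the E2F bar is tallest for S phase members (60.0%).

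For 4 mitosis members the stretch from 200 bases before to 30 bases after the start is printed, with CHR, CCAAT and E2F matches in capitals and matches on the other strand appear as the reverse complement, so that a CHR reads TTCAAA and a CCAAT box reads ATTGG. Ccnb2 (chr9:70421525-70421754, minus strand), Cdk1 (chr10:69352883-69353112, minus strand) and Top2a (chr11:99024160-99024389, minus strand) rose at 4 days, and Cenpf (chr1:189688057-189688286, minus strand) is the member of the class that fell.
Ccnb2: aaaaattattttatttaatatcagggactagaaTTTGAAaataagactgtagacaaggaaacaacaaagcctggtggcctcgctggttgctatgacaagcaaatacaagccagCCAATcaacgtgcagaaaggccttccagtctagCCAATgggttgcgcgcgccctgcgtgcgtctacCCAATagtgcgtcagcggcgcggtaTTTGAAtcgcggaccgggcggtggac
Cdk1: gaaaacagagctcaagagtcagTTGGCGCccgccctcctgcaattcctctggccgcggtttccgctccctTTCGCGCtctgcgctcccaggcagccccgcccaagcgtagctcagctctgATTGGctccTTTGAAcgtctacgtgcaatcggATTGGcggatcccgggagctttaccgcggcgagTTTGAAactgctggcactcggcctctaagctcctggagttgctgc
Top2a: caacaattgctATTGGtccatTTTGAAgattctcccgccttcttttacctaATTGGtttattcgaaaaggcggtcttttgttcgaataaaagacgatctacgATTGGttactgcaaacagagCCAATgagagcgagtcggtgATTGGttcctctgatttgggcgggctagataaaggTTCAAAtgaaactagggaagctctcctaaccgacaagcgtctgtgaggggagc
Cenpf: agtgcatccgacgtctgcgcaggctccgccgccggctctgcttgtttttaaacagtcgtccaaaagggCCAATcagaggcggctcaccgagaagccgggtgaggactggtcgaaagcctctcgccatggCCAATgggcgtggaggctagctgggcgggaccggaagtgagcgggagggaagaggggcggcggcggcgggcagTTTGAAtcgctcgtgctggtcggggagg
All 4 held a CHR and at least 1 CCAAT box in this stretch, and Cdk1 held E2F matches as well. Cenpf thus held the same kinds of match as the genes that rose.

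For the S phase members the same stretch is printed for Mcm5 (chr8:75109309-75109538, plus strand), which rose at 4 days, and for Pcna (chr2:132253151-132253380, minus strand) and Tyms (chr5:30073596-30073825, minus strand), which did not pass the test.
Mcm5: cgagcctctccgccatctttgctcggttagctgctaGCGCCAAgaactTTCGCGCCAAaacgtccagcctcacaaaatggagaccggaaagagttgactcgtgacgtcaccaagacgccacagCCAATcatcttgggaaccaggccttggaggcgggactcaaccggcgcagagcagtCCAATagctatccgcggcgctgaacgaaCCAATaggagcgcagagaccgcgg
Pcna: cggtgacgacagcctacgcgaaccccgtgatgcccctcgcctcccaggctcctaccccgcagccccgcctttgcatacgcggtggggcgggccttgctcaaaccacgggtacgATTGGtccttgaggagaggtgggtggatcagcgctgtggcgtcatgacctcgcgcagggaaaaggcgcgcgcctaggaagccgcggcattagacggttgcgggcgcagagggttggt
Tyms: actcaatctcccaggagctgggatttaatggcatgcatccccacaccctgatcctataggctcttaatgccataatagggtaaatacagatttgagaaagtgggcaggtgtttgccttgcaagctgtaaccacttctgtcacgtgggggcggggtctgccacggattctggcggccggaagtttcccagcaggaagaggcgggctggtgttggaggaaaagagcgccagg
Mcm5 held overlapping E2F matches, Pcna held a CCAAT box alone, and Tyms held none of the 3 motifs. Of the 6 S phase members with an E2F match (Mcm3, Mcm5, Mcm6, Mcm7, Rrm1 and Rrm2) 5 passed the test as higher at 4 days, and of the 4 without one (Cdc45, Mcm2, Pcna and Tyms) 0 did. This split was noticed after the values were seen and was not tested, and the window of Mcm4 was not in the RefSeq table. Of the mitosis members 19 of 20 with a CHR and 7 of 7 without one were higher at 4 days.

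Levels below are in CPM, counts relative to a library size that TMM has set to a common scale, and levels of different genes are compared in FPKM, which also divides by transcript length. Total expected counts ran from 25.4 to 117.8 × 10⁶ per library, and mitochondrial transcripts took 47.5 to 58.4% of them. In 8-day A, Lars2 and CT010467.1 took 15.8% of the counts. Under TMM the median over all genes tested of the change at 4 days was 0.006 on the log2 scale, and under library size alone it was 0.209, so that each 4-day value has TMM as its reference.

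In hearts of saline mice the S phase members were expressed at higher levels per length than the mitosis members. The median FPKM per heart was between 0.77 and 1.39 over the 11 S phase members and between 0.16 and 0.3 over the 33 mitosis members, without overlap. Pcna, the sliding clamp that holds DNA polymerase on its template, was the highest member at 8.19 ± 0.844 FPKM (SD, n = 4). Cenpf, a large protein of the kinetochore and nuclear envelope, came next at 5.26 ± 1.52 FPKM, and Rrm1 followed at 3.72 ± 0.365 FPKM. Apart from Cenpf the highest mitosis member was Kif23 at 0.785 ± 0.499 FPKM. The lowest were Ttk, a checkpoint kinase, at 0.0525 ± 0.0377 FPKM and Bub1, another one, at 0.055 ± 0.0238 FPKM. Neighbours in this order, such as Ttk and Bub1 or Cenpf and Rrm1, differed by less than or about their spread. Counts of the lowest members were few, between 2 and 19 reads per saline heart for Bub1.

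After 4 days of isoproterenol 32 of the 33 mitosis members and 5 of the 11 S phase members rose, and 1 mitosis member, Cenpf, fell. Of all 26862 genes tested 6.05% rose and 3.40% fell. The median log2 fold change was 2.26 over the mitosis members and 0.45 over the S phase members, against 0.006 over all genes. For 36 members every 4-day heart was above every saline heart, which held for 8.00% of all genes. The test was edgeR's quasi-likelihood F test, two-sided, with Benjamini-Hochberg adjustment over all 26862 genes and a threshold of 0.05, and a fold change is given with its standard error (SE). In whole tissue a change in the number of cells of a type and a change of RNA per cell cannot be told apart.

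**Figure D2:**
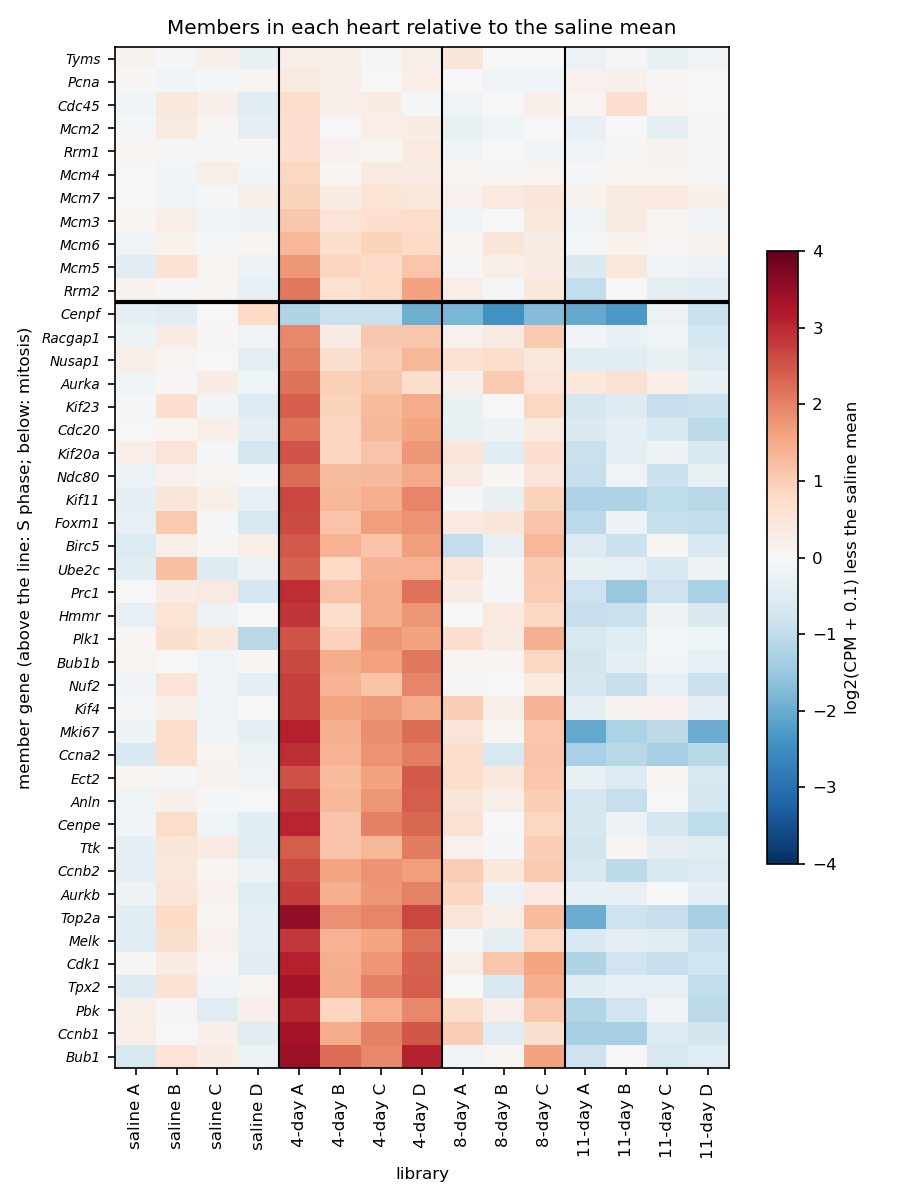
Each of the 44 members (rows, ordered within its class by the change at 4 days) in each of the 15 hearts (columns), as log2(CPM + 0.1) less the mean of the 4 saline hearts, from blue (lower) to red (higher). The mitosis rows are red in all 4 hearts of the 4-day group and mostly blue in the 11-day group, the S phase rows are pale, and Cenpf is blue in every treated heart.

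Cyclins and their kinase, which drive entry into mitosis, rose in all 4 members. Cdk1, the kinase itself, was at 0.27, 0.353, 0.279 and 0.169 CPM in saline A to D, at 3.01, 0.899, 1.14 and 1.77 in the 4-day hearts, at 0.335, 0.677 and 0.989 in the 8-day hearts and at 0.0562, 0.11, 0.0897 and 0.11 in the 11-day hearts. The 4-day hearts lay above all saline hearts and the 11-day hearts below all of them, while the 8-day hearts overlapped saline. At 4 days the log2 fold change of Cdk1 was 2.66 ± 0.38 (SE; edgeR adjusted p = 0.000908).

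Ccna2, cyclin A2, which acts in S phase and early mitosis, was at 0.396, 1.12, 0.718 and 0.549 CPM in saline, at 5.79, 1.87, 2.54 and 3.01 at 4 days, at 1.13, 0.381 and 1.56 at 8 days and at 0.206, 0.248, 0.197 and 0.249 at 11 days. Its 4 hearts at 11 days were tightly grouped and all under the lowest saline heart. Ccnb1, cyclin B1, was at 0.198, 0.147, 0.186 and 0.0844 CPM in saline, at 2.41, 0.591, 0.91 and 1.31 at 4 days, at 0.396, 0.0846 and 0.287 at 8 days and at 0, 0, 0.0717 and 0.0498 at 11 days. No read of Ccnb1 was counted in 11-day A and 11-day B, and its saline hearts held 2 to 22 reads.
The 4-day changes were 2.29 ± 0.36 for Ccna2 (adjusted p from edgeR 0.00153) and 2.99 ± 0.43 for Ccnb1 (adjusted p 0.000985). Ccnb2, cyclin B2, was at 0.108, 0.265, 0.186 and 0.127 CPM in saline, 1.51, 0.693, 0.817 and 0.753 at 4 days, 0.427, 0.254 and 0.447 at 8 days and 0.075, 0.0275, 0.0717 and 0.0797 at 11 days. It changed by 2.49 ± 0.35 at 4 days, but its pseudogene Ccnb2-ps held more counts over all libraries (426.5) than Ccnb2 itself (402.0), so reads of the 2 may have been split and its values are uncertain.

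Chromosome structure was represented by Mki67, which coats mitotic chromosomes and is the common marker of cycling cells, and by Top2a, the topoisomerase that untangles sister chromatids. Mki67 was at 4.54, 8.71, 4.9 and 4.05 CPM in saline, at 46.4, 14.4, 19.6 and 25.5 at 4 days, at 7.69, 5.75 and 11.5 at 8 days and at 1.2, 2.15, 2.51 and 1.27 at 11 days. The group order was the same for Top2a, at 1.53, 3.76, 2.25 and 1.6 CPM in saline, 25.3, 7.88, 8.52 and 14.1 at 4 days, 3.05, 2.54 and 5.26 at 8 days and 0.469, 1.16, 1.09 and 0.797 at 11 days. In both genes the 4-day and 11-day hearts did not overlap saline, on opposite sides, and 4-day A was the highest of all hearts. The 4-day log2 fold change was 2.27 ± 0.32 for Mki67 (adjusted p 0.000886) and 2.63 ± 0.37 for Top2a (adjusted p 0.000831).

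Mitotic kinases and factors rose in all 6 members, with a median log2 fold change of 2.34. Foxm1, a transcription factor that turns on mitosis genes, was at 0.288, 0.912, 0.372 and 0.211 CPM in saline, at 2.89, 0.976, 1.45 and 1.6 at 4 days, at 0.549, 0.592 and 0.989 at 8 days and at 0.131, 0.33, 0.161 and 0.149 at 11 days. Saline B, at 0.912 CPM, lay just under 4-day B. Plk1, a kinase of spindle assembly, was at 0.126, 0.235, 0.186 and 0 CPM in saline, at 1.13, 0.308, 0.613 and 0.556 at 4 days, at 0.244, 0.169 and 0.479 at 8 days and at 0.0375, 0.0551, 0.108 and 0.0896 at 11 days. Aurkb, a kinase that corrects chromosome attachment, was at 0.126, 0.265, 0.194 and 0.0844 CPM in saline, at 1.64, 0.591, 0.771 and 0.916 at 4 days, at 0.366, 0.127 and 0.223 at 8 days and at 0.112, 0.11, 0.161 and 0.0996 at 11 days.
All of them were above saline in each 4-day heart, and their levels at 11 days lay within or below the saline range. The 4-day log2 fold changes were 2.03 ± 0.40 for Foxm1 (adjusted p 0.00586), 2.15 ± 0.48 for Plk1 (adjusted p 0.0116) and 2.53 ± 0.38 for Aurkb (adjusted p 0.00122). Aurka, a kinase of the spindle poles, had the smallest change of this role at 1.64 ± 0.37. It was at 0.216, 0.265, 0.338 and 0.211 CPM in saline, 1.51, 0.591, 0.659 and 0.458 at 4 days, 0.305, 0.635 and 0.415 at 8 days and 0.375, 0.441, 0.323 and 0.189 at 11 days, the one mitosis member with a positive value at 11 days. Pbk, a mitotic kinase, was at 0.216, 0.176, 0.0929 and 0.211 CPM in saline, 2.06, 0.385, 0.641 and 0.916 at 4 days, 0.335, 0.212 and 0.479 at 8 days and 0.0187, 0.0551, 0.143 and 0.0299 at 11 days. At 4 days it changed by 2.72 ± 0.52, and Melk, another kinase, by 2.65 ± 0.44. Without 4-day A the change of Plk1 was 1.71 (adjusted p 0.0573) and that of Aurka 1.1 (adjusted p 0.0541), and neither passed.

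Kinetochore and checkpoint members, which tie chromosomes to the spindle and delay division until all are attached, held both the largest rise and the fall. Bub1 was at 0.036, 0.206, 0.161 and 0.0844 CPM in saline, at 2.2, 0.899, 0.706 and 1.7 at 4 days, at 0.0915, 0.127 and 0.542 at 8 days and at 0.0187, 0.11, 0.0359 and 0.0498 at 11 days. Its log2 fold change at 4 days, 3.43 ± 0.47 (edgeR adjusted p = 0.000736), was the highest of all members and rests on few saline reads. Birc5, also called survivin, was at 0.198, 0.412, 0.355 and 0.422 CPM in saline, at 2.29, 1.05, 0.855 and 1.28 at 4 days, at 0.122, 0.254 and 0.989 at 8 days and at 0.206, 0.138, 0.359 and 0.179 at 11 days, and changed by 2.05 ± 0.34 at 4 days. The other risers of this role, Bub1b, Ttk, Cenpe, Ndc80 and Nuf2, changed by 1.84 to 2.42.

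Cenpf moved against its class. It was at 40.9, 40.6, 54.7 and 92.7 CPM in saline, at 23.2, 29.1, 29.3 and 13.7 at 4 days, at 15.2, 9.99 and 16.1 at 8 days and at 13.1, 11, 45.8 and 29.3 at 11 days. All hearts of the 4-day and 8-day groups were under the lowest saline heart, and 11-day C lay inside the saline range. Its log2 fold change was -1.25 ± 0.26 at 4 days (edgeR adjusted p = 0.00867), -2.05 ± 0.27 at 8 days (adjusted p 0.00132) and -1.20 ± 0.38 at 11 days, where it did not pass (adjusted p 0.105). The 11-day fall did pass in edgeR without 11-day C (adjusted p 0.0233) and with a filter of at least 1 count over all libraries (adjusted p 0.0275). It was the 1 member of all 44 that fell at 8 days, where 1.20% of all genes fell. With robust dispersions in edgeR the falls at 4 days (adjusted p 0.0998) and 8 days (adjusted p 0.0925) did not pass. With limma on FPKM they did not pass either (adjusted p 0.109 at 4 days and 0.161 at 8 days).

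Counts of Cenpf came almost entirely from its longest transcript, Cenpf-204, of 11130 bases, which held 94.1 to 99.6% of them in each of the 15 libraries, 96.3 to 98.6% in saline hearts and 94.6 to 98.2% in 4-day hearts. Cenpf took 55.5 to 84.4% of the summed CPM of the mitosis members in saline hearts and 11.5 to 33.5% in 4-day hearts. CPM is not divided by length, so this long transcript adds to the share. The summed CPM of the other 32 mitosis members was 17.2 to 32.6 in saline, 57.8 to 179.0 at 4 days, 24.1 to 47.3 at 8 days and 9.5 to 13.7 at 11 days. A sum over the class without regard to Cenpf therefore ran from 59.9 to 110.0 in saline and from 86.9 to 203.0 at 4 days, with overlap, while the sum of the other 32 did not overlap.

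**Figure D3:**
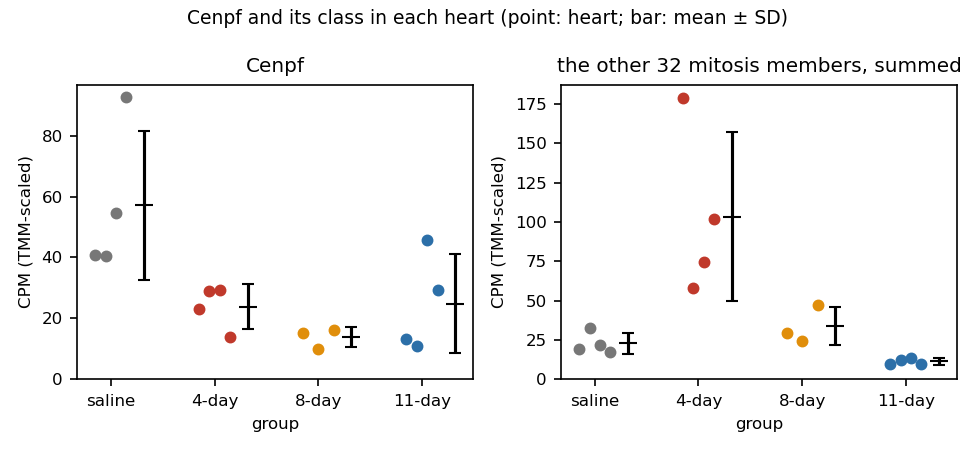
CPM of Cenpf (left) and the summed CPM of the other 32 mitosis members (right) in each heart (points), with the mean and SD of each group (bars). Cenpf is highest in the saline group and lies at 13.7 to 29.3 CPM at 4 days, where the other members are at their highest, 57.8 to 179.0 CPM.

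Spindle motors and microtubule proteins rose in all 6 members at 4 days, and the cytokinesis members, which split the cell after mitosis, in all 5. Kif11, the motor that pushes the spindle poles apart, was at 0.72, 1.38, 1.15 and 0.76 CPM in saline, at 6.77, 2.57, 2.83 and 4.06 at 4 days, at 0.945, 0.762 and 1.91 at 8 days and at 0.356, 0.358, 0.43 and 0.398 at 11 days. Prc1, which bundles the microtubules between the separating chromosomes, was at 1.15, 1.41, 1.5 and 0.675 CPM in saline, at 9.48, 2.65, 3.26 and 5.46 at 4 days, at 1.43, 1.06 and 2.39 at 8 days and at 0.6, 0.33, 0.592 and 0.398 at 11 days. Both stood above saline in every 4-day heart and below it in every 11-day heart. At 4 days Kif11 changed by 2.02 ± 0.31 (adjusted p from edgeR 0.00135) and Prc1 by 2.09 ± 0.36 (adjusted p 0.00266).

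Anln, anillin, a scaffold of the contractile ring, was at 0.774, 1.03, 0.845 and 0.886 CPM in saline, at 7.04, 2.36, 3.2 and 5.1 at 4 days, at 1.28, 1.06 and 1.82 at 8 days and at 0.506, 0.413, 0.861 and 0.508 at 11 days. Its log2 fold change at 4 days was 2.36 ± 0.30, and its 3 hearts at 8 days all lay above saline without a call (0.66 ± 0.25, adjusted p 0.24). Tpx2, a spindle assembly factor, had the largest 4-day change of the spindle role at 2.69 ± 0.38. Kif4, a chromosome-bound motor, was at 0.396, 0.5, 0.363 and 0.422 CPM in saline, 3.31, 1.44, 1.57 and 1.34 at 4 days, 0.915, 0.508 and 1.24 at 8 days and 0.3, 0.468, 0.484 and 0.299 at 11 days, and changed by 2.26 ± 0.31 at 4 days. Its 4-day A heart stood far above the other 3. Nusap1 (1.41 ± 0.28) and Racgap1 (1.3 ± 0.28) had the smallest rises of the class.

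The anaphase-promoting complex (APC/C), which starts the separation of chromosomes, was represented by Cdc20, its activator, and Ube2c, its ubiquitin-conjugating partner. Cdc20 was at 0.36, 0.382, 0.439 and 0.253 CPM in saline, at 1.96, 0.719, 1.02 and 1.24 at 4 days, at 0.274, 0.296 and 0.479 at 8 days and at 0.206, 0.248, 0.197 and 0.12 at 11 days, and changed by 1.74 ± 0.31 at 4 days (adjusted p 0.00295). Ube2c was at 0.09, 0.5, 0.0845 and 0.127 CPM in saline and at 1.24, 0.36, 0.576 and 0.589 at 4 days, so that saline B lay above 4-day B. Its change of 2.07 ± 0.54 passed (adjusted p 0.028), but did not without saline A, saline C, saline D or 4-day A, in turn (adjusted p 0.0976, 0.111, 0.0588 and 0.136).

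Among the S phase members the replicative helicase, which unwinds DNA ahead of the polymerase, was measured by Mcm2 to Mcm7 and Cdc45. At 4 days Mcm3, Mcm5, Mcm6 and Mcm7 rose, and Mcm2, Mcm4 and Cdc45 did not pass. Mcm5 was at 1.01, 2.15, 1.54 and 1.18 CPM in saline, at 4.9, 2.65, 2.48 and 3.14 at 4 days, at 1.46, 1.69 and 1.82 at 8 days and at 0.918, 1.93, 1.29 and 1.19 at 11 days. Mcm2 was at 2.84, 3.79, 3.03 and 2.28 CPM in saline, at 4.79, 2.98, 3.58 and 3.6 at 4 days, at 2.35, 2.62 and 2.93 at 8 days and at 2.34, 2.95, 2.28 and 2.78 at 11 days. Cdc45 was at 0.738, 1.15, 0.972 and 0.591 CPM in saline, at 1.43, 0.976, 1.06 and 0.785 at 4 days, at 0.732, 0.846 and 0.989 at 8 days and at 0.918, 1.38, 0.897 and 0.847 at 11 days.
Mcm5 thus separated the 4-day hearts from saline, while in Mcm2 and Cdc45 4-day A alone stood above all saline hearts. The log2 fold changes at 4 days were 1.18 ± 0.26 for Mcm5 (edgeR adjusted p = 0.0105), 0.33 ± 0.17 for Mcm2 (adjusted p 0.292) and 0.32 ± 0.24 for Cdc45 (adjusted p 0.494). Mcm6 changed by 0.98 ± 0.14, Mcm3 by 0.80 ± 0.16, Mcm7 by 0.58 ± 0.14 and Mcm4 by 0.45 ± 0.16. Mcm7 was at 4.19, 3.65, 4.03 and 4.77 CPM in saline, 7.68, 5.11, 6.11 and 5.66 at 4 days, 4.7, 5.42 and 5.81 at 8 days and 4.61, 5.29, 5.52 and 4.81 at 11 days. Its call, for a gene that shares its locus with Ap4m1, Cops6 and a microRNA cluster, did not hold without 4-day A (0.44, adjusted p 0.0713). It also did not hold with effective lengths as offsets in edgeR (0.44, adjusted p 0.187) or with limma on FPKM (adjusted p 0.112).

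Nucleotide supply and the polymerase clamp moved little, apart from Rrm2. Rrm2 is the subunit of ribonucleotide reductase that is made in S phase, and Rrm1 is its stable partner. Rrm2 was at 0.846, 0.794, 0.836 and 0.591 CPM in saline, at 3.64, 1.21, 1.4 and 2.52 at 4 days, at 0.945, 0.719 and 1.05 at 8 days and at 0.337, 0.743, 0.556 and 0.548 at 11 days. Rrm1 was at 14.3, 12.8, 12.8 and 13.9 CPM in saline, at 21.4, 15.3, 14.2 and 17.8 at 4 days, at 12, 13.3 and 12.4 at 8 days and at 12, 14, 14.7 and 13.9 at 11 days. Thus Rrm2 rose by 1.5 ± 0.32 (edgeR adjusted p = 0.00915), and Rrm1, at 0.36 ± 0.12, did not pass (adjusted p 0.0727). Rrm1 was near the threshold and did pass in 5 of 18 alternative settings. Among these were edgeR without 4-day C (adjusted p 0.0328) and with library size only (adjusted p 0.0144). Under library size only the median change over all genes tested was itself 0.209.

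Pcna was at 11.2, 10.1, 10.4 and 11.5 CPM in saline, at 14.3, 12.4, 10.6 and 13 at 4 days, at 10.6, 9.86 and 9.89 at 8 days and at 12.2, 12.4, 11.2 and 10.9 at 11 days. Tyms, thymidylate synthase, was at 9.05, 7.74, 9.42 and 6.71 CPM in saline, at 9.92, 9.32, 8.38 and 9.59 at 4 days, at 11.5, 8.29 and 8.04 at 8 days and at 6.95, 7.82, 6.82 and 7.45 at 11 days. In both the groups overlapped at 4 days, and the changes were 0.23 ± 0.10 for Pcna (adjusted p 0.197) and 0.16 ± 0.11 for Tyms (adjusted p 0.446). Pcna had 233.0 to 1645.63 expected counts per library, and the standard errors of both were small beside those of the mitosis members. Cdc45, Mcm4, Pcna and Rrm1 passed the test in none of the 6 comparisons of groups.

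**Figure D4:**
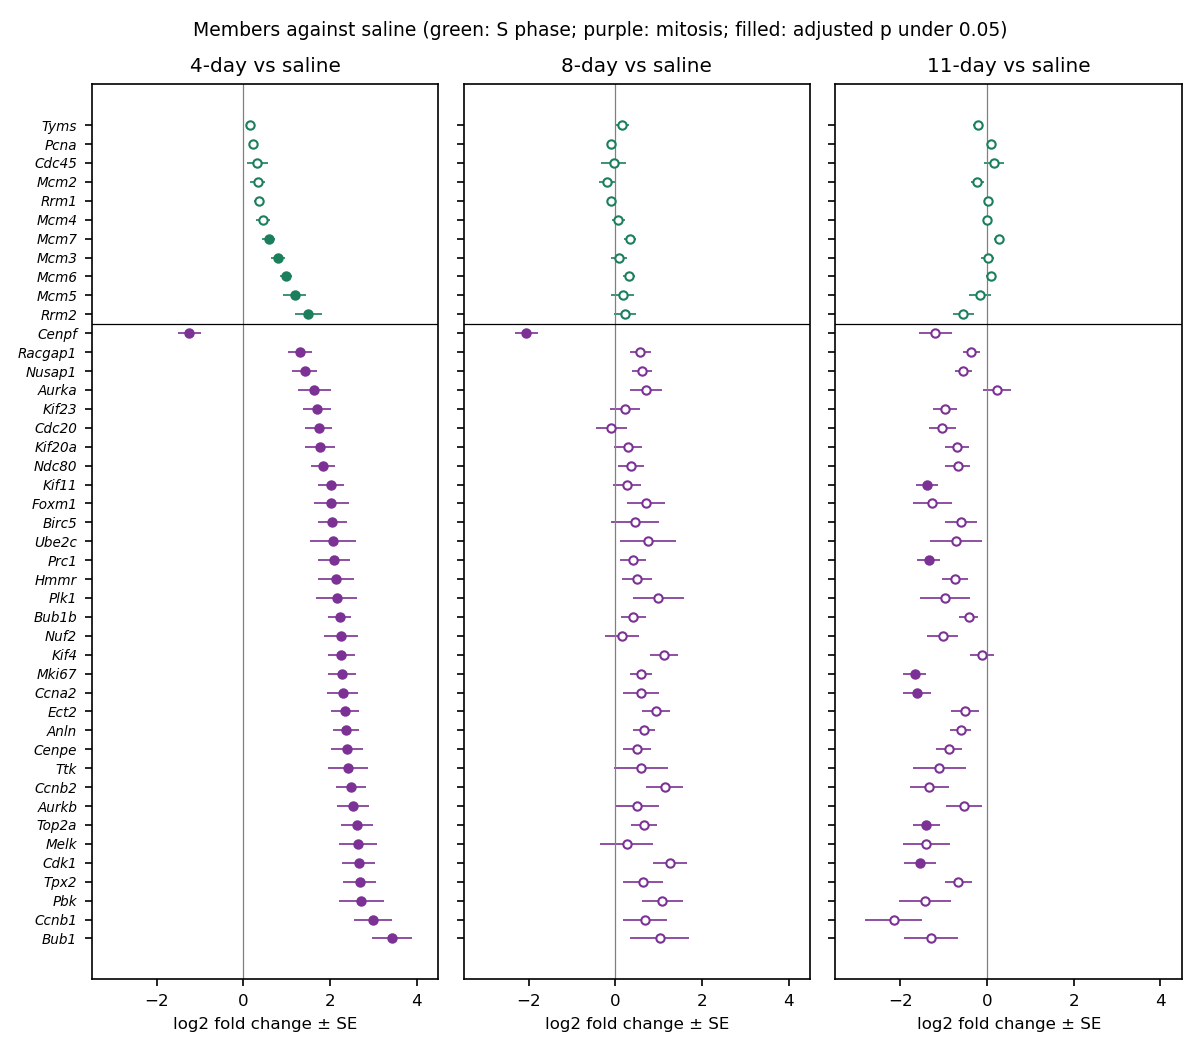
Log2 fold change against saline (x axis, points, with SE bars) of each member (rows) after 4, 8 and 11 days, with S phase members in green, mitosis members in purple and filled points for adjusted p under 0.05. At 4 days the purple points other than Cenpf lie at 1.3 to 3.43 and the green ones at 0.16 to 1.5, at 8 days Cenpf is the one filled point, and at 11 days 6 purple points are filled below 0.

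After 8 days no member was higher than saline by edgeR's test and Cenpf was lower, against 1.07% of all genes higher and 1.20% lower. A further 12 members had an unadjusted p under 0.05 without a call, and the median log2 fold change was 0.59 over the mitosis members and 0.09 over the S phase members. The largest were Cdk1 (1.27 ± 0.39, adjusted p 0.134), Ccnb2 (1.14 ± 0.43, adjusted p 0.255) and Kif4 (1.12 ± 0.32, adjusted p 0.104), with values and no call. The 3 hearts differed, and 8-day C had the highest mean over the mitosis members. For 4 members every 8-day heart was above every saline heart, which held for 6.88% of all genes. Leaving out 8-day B or saline B gave 1 higher mitosis member, as did effective lengths as offsets in edgeR.

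The direct comparison of 8 with 4 days gave a negative log2 fold change in all 44 members, with a call by edgeR in 1, Bub1b, a checkpoint kinase (-1.79 ± 0.32, adjusted p 0.042), where 0.190% of all genes were lower. For 28 members all 8-day hearts were under all 4-day hearts, which held for 5.93% of all genes, and 40 members not called had an unadjusted p under 0.05. The number of mitosis members called lower was unsteady. It was 23 without 4-day B, 7 without 4-day C, 3 without 4-day A and 0 without 4-day D, 8-day A or 8-day B. DESeq2 called 18, and over all genes it called 388 lower, against 51 by edgeR.

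After 11 days 6 mitosis members were lower than saline, where 1.95% of all genes fell, and 0 members were higher, where 1.80% rose (7 of the 44 had a log2 fold change above 0). The 6 were Mki67 (-1.67 ± 0.27, adjusted p from edgeR 0.00366), Kif11 (-1.39 ± 0.25, adjusted p 0.00722), Prc1 (-1.35 ± 0.26, adjusted p 0.0123), Ccna2 (-1.61 ± 0.32, adjusted p 0.0143), Top2a (-1.40 ± 0.31, adjusted p 0.0214) and Cdk1 (-1.55 ± 0.37, adjusted p 0.0328). All 6 had risen at 4 days. The median was -0.98 over the mitosis members, of which 32 were below 0, and 0.01 over the S phase members. For 9 members every 11-day heart was under every saline heart, against 4.77% of all genes, and 18 members not called had an unadjusted p under 0.05. Ccnb1 had the lowest value, -2.16 ± 0.65, without a call (adjusted p 0.0878).

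The calls at 11 days differed in how well they held. Cdk1 did not pass in any of 7 runs that left out 1 heart, all but the one without saline D (adjusted p 0.0524 to 0.101), and Top2a did not without 11-day A (adjusted p 0.0597) or 11-day D (adjusted p 0.0626). With all 4 groups in a shared fit Mki67 and Kif11 passed, and with limma on FPKM 0 did. With effective lengths as offsets in edgeR, Cdk1 (adjusted p 0.153), Top2a (adjusted p 0.159) and Prc1 (adjusted p 0.223) did not pass. Cenpe did pass in that setting (adjusted p 0.0403). Top2a also failed with robust dispersions in edgeR (adjusted p 0.0516).

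From 4 to 11 days 38 members fell by edgeR's test, all mitosis members but Cenpf and 6 S phase members (Mcm2, Mcm3, Mcm5, Mcm6, Rrm2 and Tyms), where 6.55% of all genes fell. In 38 members all 11-day hearts lay under all 4-day hearts, against 7.15% of all genes. The median log2 fold change was -3.16 over the mitosis members and -0.45 over the S phase members. The lowest were Ccnb1 (-5.16 ± 0.60), Bub1 (-4.77 ± 0.50) and Cdk1 (-4.21 ± 0.43). Cenpf had a log2 fold change of 0.05 ± 0.36 between these times (adjusted p 0.959). Against 8 days, 6 mitosis members were lower at 11 days (Mki67, Top2a, Cdk1, Ccna2, Prc1 and Nusap1) where 0.0782% of all genes were, Mki67 by -2.26 ± 0.26 (adjusted p 0.00465). In 26 members all 11-day hearts lay under all 8-day hearts, against 5.11% of all genes. The count of 6 was 1 without 8-day C or 11-day D, 2 without 11-day A or 11-day B, 4 without 8-day A and 8 without 8-day B. The comparisons with the 4-day group share its hearts, and those with saline share the saline hearts.

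Over the 4 groups edgeR's F test passed in 39 members, all 33 of mitosis and 6 of S phase (Mcm3, Mcm5, Mcm6, Mcm7, Rrm1 and Rrm2), against 13.0% of all genes. The highest mean CPM was at 4 days in 43 of 44 members, the exception being Cenpf, where 27.0% of all genes had it. In 35 members the mean was also lowest at 11 days, a pattern held by 8.53% of all genes.

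**Figure D5:**
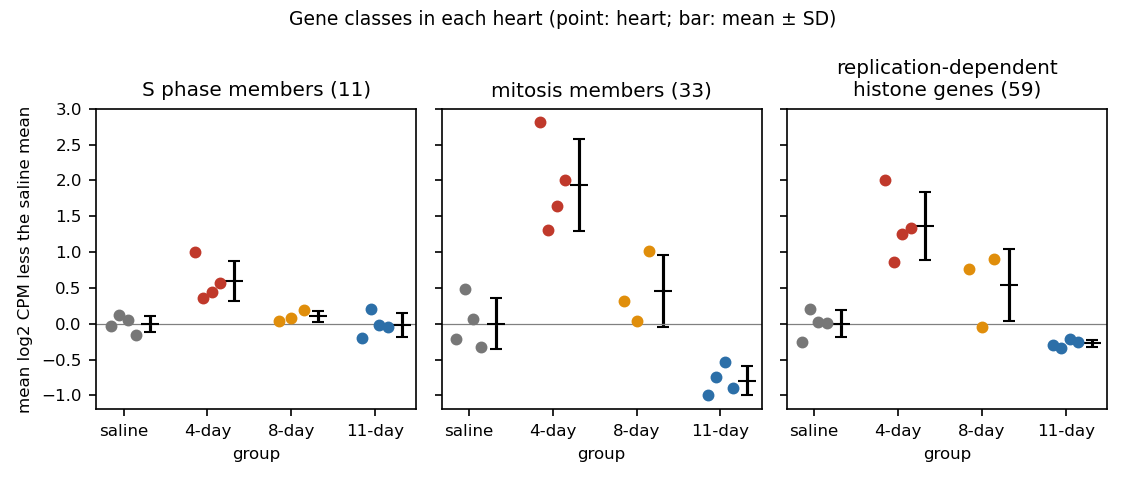
Mean log2 CPM relative to the saline mean in each heart (points), over the 11 S phase members, the 33 mitosis members and 59 replication-dependent histone genes, with the mean and SD of each group (bars). Mitosis members lie at 1.31 to 2.81 at 4 days and at -1.0 to -0.53 at 11 days, and S phase members lie at 0.36 to 1.0 and at -0.2 to 0.2.

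Averaged over each class, as log2 relative to saline, the hearts of the 4-day group were at 2.81, 1.31, 1.65 and 2.0 for mitosis and at 1.0, 0.36, 0.45 and 0.57 for S phase. The 8-day hearts were at 0.32, 0.04 and 1.01 for mitosis and at 0.04, 0.08 and 0.19 for S phase, and the 11-day hearts at -1.0, -0.74, -0.53 and -0.9 and at -0.2, 0.2, -0.02 and -0.05. Within the 4-day group the hearts had the same order in both classes, with 4-day A highest and 4-day B lowest. Mitosis less S phase came to 0.95 to 1.81 in the 4-day hearts, -0.18 to 0.35 in saline and -0.94 to -0.51 in the 11-day hearts, and these ranges do not overlap. The 8-day hearts, at -0.04 to 0.81, overlapped saline. Without 4-day A 29 mitosis members and 4 S phase members were still called higher, with median changes of 1.82 and 0.26. After the group means were taken out, the median correlation across the 15 libraries was 0.66 between mitosis members, 0.48 between S phase members and 0.5 between the classes, as a description, since the points share libraries and depth.

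Other genes of the same pathways were counted as well, on lists chosen with earlier results of these data known. Of 53 further S phase genes 26 rose and 0 fell at 4 days (median 0.63, 36 at an unadjusted p under 0.05). Of all genes 6.05% rose and 3.40% fell at that time. Among those that rose were Mcm10 (2.30 ± 0.29), a replication initiation factor, Clspn (2.23 ± 0.32), claspin of the replication checkpoint, and E2f1 (1.71 ± 0.23), an E2F activator. Of 70 further mitosis genes 51 rose and 1 fell (median 1.65). The smallest p belonged to Psrc1 (3.76 ± 0.39), Cdca3 (3.53 ± 0.47) and Aspm (2.45 ± 0.33), a spindle pole protein. At 8 days 1 of the further S phase genes (Clspn, 1.14 ± 0.28) and 2 of the further mitosis genes (Cenpa, 0.46 ± 0.11, and Cdca3, 1.87 ± 0.45) were higher, where 1.07% of all genes were. At 11 days 5 further mitosis genes were lower, Knl1 (-1.48 ± 0.28) and Aspm (-1.35 ± 0.31) among them, and 1 was higher (Ckap5, 0.34 ± 0.07), while 0 further S phase genes were called (4 at an unadjusted p under 0.05). Of all genes 1.95% fell and 1.80% rose at 11 days. A further list of 12 genes held the DREAM complex, E2F repressors and the separate factor B-MYB. Of these, Rbl1 (0.94 ± 0.18) and Mybl2, which encodes B-MYB (1.68 ± 0.42), rose at 4 days and Tfdp2 fell (-0.43 ± 0.12). There were 0 calls at 8 and 11 days by edgeR (1 and 2 at an unadjusted p under 0.05).

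Replication-dependent histone genes, whose transcripts are made during S phase and mostly lack a poly(A) tail, were measurable here because the libraries came from total RNA. Of 59 tested (65 in the table) 43 rose at 4 days, 3 at 8 days and 1 at 11 days, and 46 fell from 4 to 11 days. Of all genes 6.05%, 1.07% and 1.80% rose at these times, and 6.55% fell from 4 to 11 days. Their summed level was 104.0, 106.0, 105.0 and 113.0 CPM in saline, 230.0, 147.0, 161.0 and 172.0 at 4 days, 148.0, 110.0 and 154.0 at 8 days and 115.0, 120.0, 117.0 and 116.0 at 11 days. The sum at 11 days was above saline in every heart, while the mean log2 over the 59 genes was below 0 there (-0.34 to -0.21), and the 1 gene called higher was H1f2, a linker histone (0.44 ± 0.08). The smallest p at 4 days belonged to H4c2 (2.61 ± 0.27), H3c13 (3.94 ± 0.45) and H2ac4 (2.89 ± 0.36). Histone genes are near copies of each other, so the share of reads given to each is uncertain.

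Markers of cells that could carry these transcripts were counted in the same fits. At 4 days 11 of 12 fibroblast markers, 10 of 12 activated fibroblast markers, 8 of 12 macrophage markers and 9 of 12 monocyte markers rose, and 1 fibroblast marker fell. Of all genes 6.05% rose and 3.40% fell. Fn1 is in both the activated fibroblast and the monocyte list. Summed fibroblast markers were at 798.0 to 986.0 CPM in saline, 1560.0 to 4590.0 at 4 days, 1120.0 to 1760.0 at 8 days and 1120.0 to 1680.0 at 11 days. Activated fibroblast markers, among them Postn (4.59 ± 0.41) and Tnc (5.51 ± 0.52), ran from 71.1 to 119.0 CPM in saline, 296.0 to 1200.0 at 4 days, 139.0 to 256.0 at 8 days and 79.6 to 256.0 at 11 days. At 11 days, when the mitosis members were low, the fibroblast sum was still above every saline heart, and the activated fibroblast sum overlapped saline. Gsn alone had a mean of 441.0 CPM in saline and 601.0 at 11 days, a large part of the fibroblast sum. In the mean log2 over the fibroblast list relative to saline, 11-day B (0.11) lay under saline B (0.18). Of the 12 fibroblast markers 3 were called higher at 11 days, where 1.80% of all genes rose.
Macrophage markers summed to 95.5 to 147.0 CPM in saline, 160.0 to 217.0 at 4 days, 119.0 to 154.0 at 8 days and 129.0 to 152.0 at 11 days. Monocyte markers summed to 88.8 to 148.0, 199.0 to 501.0, 133.0 to 187.0 and 140.0 to 170.0 CPM in the same order. The mean of this sum was 114.0 CPM in saline and 376.0 at 4 days. Fn1, which is shared with the activated fibroblast list, alone went from a mean of 29.6 to 180.0 CPM. In the mean log2 over the list relative to saline, 4-day A (3.7) and 8-day C (1.69) were highest of their groups for activated fibroblast markers, as was 11-day C (1.81), and the same hearts had the highest mitosis means of their groups (2.81, 1.01 and -0.53). The same hearts were also highest for fibroblast markers (1.93, 1.01 and 0.94) and macrophage markers (0.83, 0.32 and 0.36). Monocyte markers were highest in 4-day A (1.53), 8-day C (0.38) and 11-day A (0.54), so this order was not particular to activated fibroblast markers. Endothelial markers gave 0 calls of 12 by edgeR against saline at each time (4, 1 and 1 at an unadjusted p under 0.05). They summed to 437.0 to 580.0 CPM in saline and 451.0 to 493.0 at 4 days. Of 12 cardiomyocyte markers 2 rose and 3 fell at 4 days, and their sum was 71400 to 79500 CPM in saline and 69500 to 78200 at 4 days, so heart muscle transcripts were present at high levels in every heart. Of 12 pericyte and smooth muscle markers 2 rose and 3 fell at 4 days. The part of these cells in the members' changes was not tested.

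Blood cells, which can carry cell cycle transcripts, were also counted. Erythroid markers summed to 148.0 to 610.0 CPM in saline and 97.2 to 235.0 at 4 days, with 2 of 10 tested lower at 4 days and 2 lower at 11 days. The share of all genes that fell was 3.40% at 4 days and 1.95% at 11 days. Markers of T, NK and B cells summed to 2.24 to 2.71 CPM in saline, 1.31 to 2.39 at 4 days and 1.18 to 1.42 at 11 days, with 1 of 13 lower at 11 days (Cd79a). Neutrophil markers summed to 2.74 to 3.35 CPM in saline, 2.0 to 3.2 at 4 days, 2.14 to 3.09 at 8 days and 1.83 to 6.56 at 11 days, where 11-day A had the highest mean log2 relative to saline (1.52, against at most 0.3 in the other hearts). None of the highest sums of these 3 lists at 4 days was above its highest saline heart. The part of blood cells in the members' levels was not tested.

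Several members overlap another annotated gene. Cenpf overlaps Gm37239 on the opposite strand, which was listed at 0 counts in all 15 libraries. Others are Cdc45 (Ufd1), Ube2c (Tnnc2), Kif20a (Cdc23), Cdc20 (Elovl1), Ccna2 (Exosc9), Kif4 (Pdzd11), Prc1 (Rccd1), Nusap1 (Oip5) and Foxm1 (Tex52). The strand setting of the counting is not given in the sources used here, so reads of overlapping genes may not have been told apart. Pseudogenes other than Ccnb2-ps held at most 2.8 counts over all libraries.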

How the data were processed

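Total RNA of 15 mouse hearts was sequenced. The submitters' processing notes name cutadapt 4.1 for trimming, HISAT2 2.2.1 for alignment to GRCm38.p6 and RSEM 1.3.3 for counting. What the authors deposited were expected counts, which are estimated counts per gene and transcript, and FPKM, which RSEM divides by effective length and library total. Expected counts were rounded, genes with a sum of at least 10 were kept (26862), and groups were compared in pairs with edgeR 4.0.16 (R 4.3.3) after TMM, with an F test over the 4 groups besides. The SE is the log2 fold change divided by the square root of F. Log2 values per heart used a prior count of 2 and FPKM a pseudocount of 0.1. The script was tested on simulated data. Libraries of a group were taken as separate mice, following the study's methods, and 0 pairs of libraries were identical.

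Members, gene lists and motifs were chosen with earlier results of these data known. Values in every heart are given for members fixed by role and for those with the 3 highest and 3 lowest changes at each time. Alternatives were DESeq2 1.42.0, its size factors, library size only, other filters, all groups in a shared fit, effective lengths as offsets, robust dispersions, limma 3.58.1 on log2 FPKM, the replicate letter as a block and leaving out each heart. Gene positions came from GENCODE M21. Depth was 25.4 to 117.8 × 10⁶ counts per library, and groups of 3 or 4 limit precision.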

Additional observations from a re-analysis of the deposited data

Results flagged for a closer look

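In 3 of 87 sets of 4 hearts 1 heart stood far from the others by Dixon's test on log2(CPM + 0.1), which chance gives in about 1 of 20. Kif4 in 4-day A was at 3.31 CPM against 1.34 to 1.57 in the others of its group (gap over range 0.8292). Cdc45 in 11-day B was at 1.38 CPM against 0.847 to 0.918 (0.8355). Ccnb2 in 11-day B was at 0.0275 CPM against 0.0717 to 0.0797 (0.868), which are few reads.

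Treated groups were also compared directly with each other by edgeR. Mitosis members differed in 1 between 4 and 8 days, 32 between 4 and 11 days and 6 between 8 and 11 days. S phase members differed in 6 between 4 and 11 days, and all were lower at the later time. The saline samples carry no day, so no saline group matched to each time was compared.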

How the results depend on the processing

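The rise at 4 days was called in 29 to 32 mitosis members and 4 to 7 S phase members when 1 heart was left out, and in 20 and 1 with limma on FPKM, while library size alone gave 8 of S phase. The fall of Cenpf at 4 and 8 days was called in 0 with robust dispersions and 0 with limma, and in 1 in every run that left out 1 heart. At 8 days 1 mitosis member was higher with effective lengths, and 0 to 1 without 1 heart. At 11 days against saline 2 mitosis members were lower with all groups in a shared fit and 0 with limma (4 to 7 without a heart). From 4 to 8 days the count of mitosis members that fell was 28 with library size alone, 26 with a sum of at least 1, 18 with DESeq2, 16 in the shared fit, 2 with robust dispersions, 0 with filterByExpr, effective lengths or limma, and 0 to 23 without a heart, and the S phase count was 3, 5, 4 and 1 in the first 4 of these (0 to 4 without a heart). From 8 to 11 days the mitosis count was 15 with a sum of at least 1, 11 with DESeq2, 10 with robust dispersions, 2 with effective lengths, 1 with filterByExpr, 0 in the shared fit or limma, and 1 to 8 without a heart. From 4 to 11 days 3 S phase members were lower with limma and 4 to 9 without a heart, and 31 to 32 mitosis members without a heart. The F test passed in 4 to 8 S phase and 32 to 33 mitosis members without a heart. Calls over all genes moved as well. From 4 to 8 days 51 genes fell in the pairwise edgeR fit used above. The count was 513 with library size alone and 525 of 35235 with a sum of at least 1. DESeq2 gave 388 and the shared fit 211. From 8 to 11 days 21 genes fell in the pairwise fit and 152 with a sum of at least 1. DESeq2 gave 124 there and robust dispersions 57. The cause of these moves was not tested. The median log2 fold change of the S phase members was near 0 and changed sign at 8 days with limma (-0.00), and at 11 days with effective lengths (-0.01) and without a heart (-0.02 to 0.07).

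Replicate letters were not stated to pair the hearts, and same-letter hearts did not deviate together (correlations of -0.29 to 0.25). With the letter as a replicate block 18 mitosis members were lower at 8 days than at 4 days. Over all genes 352 were lower there with the block and 51 without it. The fall of Cenpf at 11 days against saline passed with the block (adjusted p 0.000828 from edgeR). The block changed the other counts of members by at most 1.5 times. Few reads limit members such as Bub1 and Ccnb1.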
